A study of Mus musculus with 4 samples.

Results

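H2A.Z is a histone variant that replaces H2A mainly in nucleosomes at promoters and enhancers. ATP-dependent remodelling complexes of the SRCAP family place it there, and Anp32e is a chaperone reported to take it off chromatin. Broad H2A.Z peaks usually span several neighbouring nucleosomes. The regions described here are the broad H2A.Z peaks of Anp32e knockout cells that no peak of the wild-type list overlaps.

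The cells were mouse embryonic fibroblasts on a C57BL/6 background, between passages 5 and 10. They were grown from the torsos of single embryos at embryonic day 10.5 after heterozygous parents had been crossed. The wild type was Anp32e+/+ and the knockout Anp32e-/-, with both mutant alleles inherited. H2A.Z-bound DNA was collected by chromatin immunoprecipitation and sequenced (ChIP-seq), with 1 H2A.Z library per genotype. The authors' lists hold the positions of the called peaks, without a height or read count. Positions are on the mouse build mm9 and count from 1, with both the first and the last base included. The starts in the lists were read as counting from 0, as in BED files, which no source states.

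A member is a knockout peak at least 2000 bp wide that shares no base with any wild-type peak. There were 1379 of them among 41912 knockout peaks, set against 37667 wild-type peaks. They were chosen by peak width and by the lack of a partner, so their number and width are a description and are not tested. No test between genotypes was possible with 1 library each, and sequencing depth is unknown. Every value therefore describes these 2 libraries, and the 95% intervals cover counting error over peaks only. Gene positions on mm9 were not used here, so the regions are given by position, without gene names, and the fibroblast identity of the cells was not checked.

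The broad knockout-only peaks were a small part of the broad peaks of the knockout and far more frequent than their wild-type counterparts. Of all knockout peaks, 28.1% had no wild-type partner. Of the 18655 knockout peaks at least 2000 bp wide, 7.39% had none (95% interval 7.02 to 7.78%). By the mirror rule, 141 of the 13144 broad wild-type peaks had no knockout partner, or 1.07% (95% interval 0.904 to 1.26%), while 18.3% of wild-type peaks of any width had none. Broad knockout-only peaks thus outnumbered broad wild-type-only peaks by a factor of 9.78 (95% interval 8.22 to 11.7). The same factor was 1.54 (95% interval 1.49 to 1.59) for one-genotype peaks under 2000 bp, of which the knockout had 10380 and the wild type 6751. Broad peaks as a whole were 1.42 times as many in the knockout list.

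A fixed width does not reach equally deep into the lists, since 2000 bp exceeded 55.5% of knockout and 65.1% of wild-type peaks. With the wild-type minimum lowered to 1769 bp, the width of the same rank, the mirror rule gave 328 wild-type peaks. The factor was then 4.204 (95% interval 3.73 to 4.76), so the knockout excess was smaller and kept its direction.

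**Figure D1:**
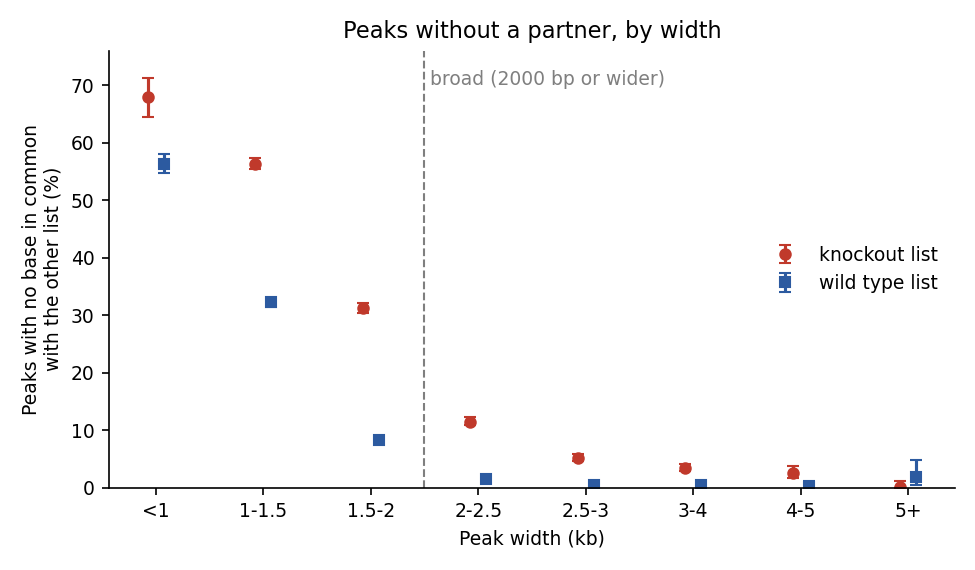
Share of peaks with no base in common with the other list (y axis, percent) by peak width (x axis, kb), for the knockout list (red circles) and the wild-type list (blue squares), with exact 95% intervals over peaks. The knockout share is the higher one in each class up to 5 kb, and it falls from 11.5% at 2 to 2.5 kb to 2.63% at 4 to 5 kb.

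The lack of a partner became rarer with width in the knockout list, as in the wild-type list up to 3000 bp. Among knockout peaks from 2000 to under 2500 bp, 950 of 8240 had no partner, or 11.5%, compared with 106 of 6611 wild-type peaks, or 1.60%. From 2500 to under 3000 bp the shares were 5.25% and 0.498%, and from 3000 to under 4000 bp 3.44% and 0.543%. From 4000 to under 5000 bp, 26 of 987 knockout peaks (2.63%) and 1 of 497 wild-type peaks (0.201%) stood alone. At 5000 bp and above the order turned, with 1 of 472 knockout peaks (0.212%, 95% interval 0.00536 to 1.17%) and 4 of 211 wild-type peaks (1.90%, 95% interval 0.519 to 4.78%). Those 2 intervals overlap.

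The members were modest in width for broad peaks. Their median was 2286 bp, with quartiles of 2106 and 2595.5 bp, against 2613 bp for the 17276 knockout peaks of at least 2000 bp that had a wild-type partner. Only 157 members (11.4%) reached 3000 bp, as did 29.4% of the shared broad peaks, and 27 members reached 4000 bp. Together the members covered 3.37 Mb, which is 18.7% of the sequence in knockout-only peaks, although they were 11.7% of those peaks by number. The broad wild-type-only peaks had a median of 2238 bp and covered 0.362 Mb.

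The number of knockout-only peaks fell gradually across the width threshold. Knockout-only peaks numbered 401 from 1900 to under 2000 bp and 327 from 2000 to under 2100 bp. Just inside the threshold lay peaks of 2000 bp at chr1:153397524-153399523 and chr8:98196248-98198247, which were 17.9 kb and 1.81 kb from the nearest wild-type peak. Just outside lay peaks of 1999 bp at chr5:37350753-37352751 and chr15:90997841-90999839, at 26.2 kb and 20.9 kb.

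Broad knockout-only peaks were found on all 20 chromosomes listed, the 19 autosomes and the X, but very unevenly. Chromosome 1 held 219 members, chromosome 15 held 165, chromosome 13 held 137, chromosome 5 held 132 and chromosome 16 held 128. These 5 chromosomes carried 56.6% of the members (95% interval 54.0 to 59.3%). They carried 41.7% of narrower knockout-only peaks, 30.9% of all knockout peaks and 28.9% of shared broad peaks. At the other end, chromosome 12 held 4 members, chromosome 6 held 9 and chromosome 4 held 10. These 3 chromosomes carried 1.67% of the members (95% interval 1.06 to 2.49%) and 11.5% of all knockout peaks.

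Measured against the broad knockout peaks of the same chromosome, the members made up 17.5% on chromosome 16 (95% interval 14.8 to 20.5%). Chromosome 1 followed at 16.6% (95% interval 14.6 to 18.7%). Their share was 13.9% on chromosome 13 and 12.8% on chromosome 15. Neighbours in that order had overlapping intervals. Next came chromosome 10 with 9.46% and chromosome 5 with 9.13%. The lowest share, 0.871% (95% interval 0.238 to 2.22%), was that of chromosome 12. It was 0.995% on chromosome 4 (95% interval 0.478 to 1.82%), 1.38% on chromosome 11 and 1.395% on chromosome 6. On the X the members made up 4.66% of broad knockout peaks (95% interval 2.74 to 7.35%). Per 10 Mb of chromosome, the highest number was 16.5 on chromosome 15 and the lowest 0.339 on chromosome 12.

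**Figure D2:**
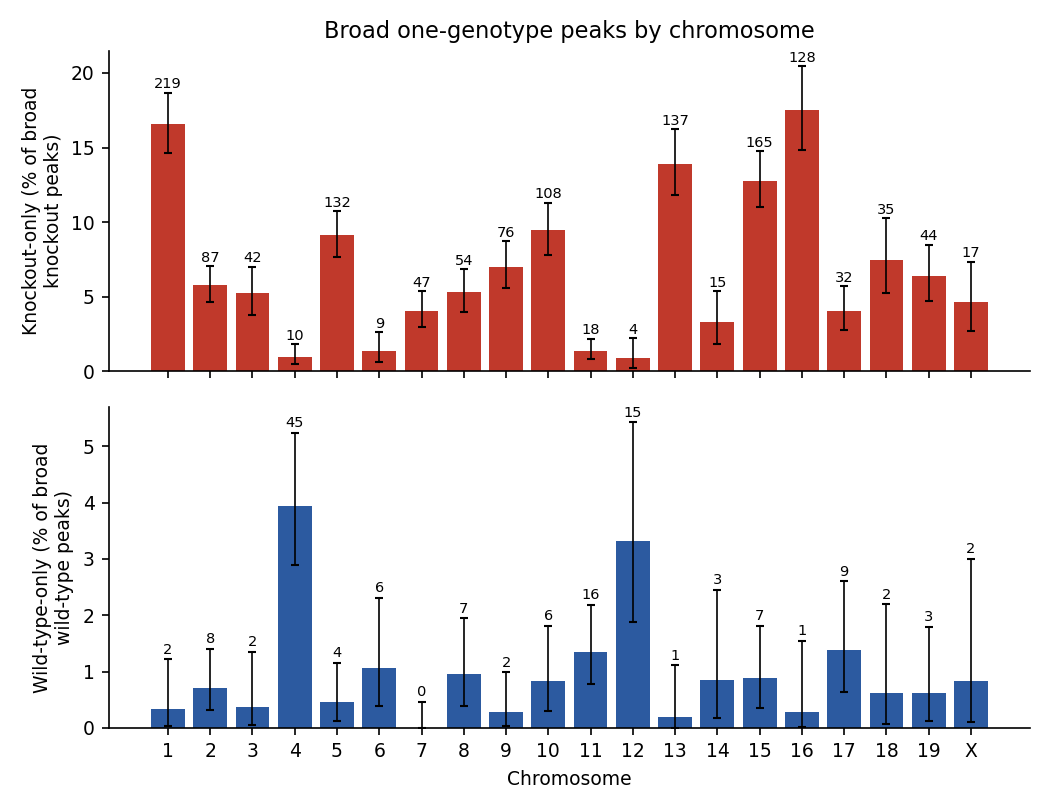
Broad one-genotype peaks by chromosome (x axis), as a percent of the broad peaks of the same list (y axes). The upper panel shows the knockout and the lower panel the wild type, with exact 95% intervals and the number of peaks above each bar. Chromosomes 1, 13, 15 and 16 stand highest in the knockout at 12.8 to 17.5%, and chromosomes 4 and 12 in the wild type at 3.95 and 3.33%.

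The broad wild-type-only peaks were most frequent on chromosomes 4 and 12, which held few members. Of the 141, 45 lay on chromosome 4 and 15 on chromosome 12, where they made up 3.95% (95% interval 2.89 to 5.25%) and 3.33% (95% interval 1.87 to 5.43%) of broad wild-type peaks. Chromosomes 1, 13 and 16 together held 4 of them, or 2.84%, and 484 of the members, or 35.1% (95% interval 32.6 to 37.7%). Of narrower knockout-only peaks they held 27.85%. The wild-type-only share of broad wild-type peaks was 0.339, 0.200 and 0.280% on chromosomes 1, 13 and 16, against 1.07% over all chromosomes. The spread was not reversed on every chromosome. Chromosomes 10 and 15, also rich in members, had 0.836 and 0.886%, and chromosome 6, with 9 members, had 1.07%. Chromosome 4 is the single chromosome listed where matched peaks were narrower in the knockout. Within 50 kb of a member lay 11 of the 141 broad wild-type-only peaks, or 7.80% (95% interval 3.96 to 13.5%), compared with 11.5% of shared broad wild-type peaks, a value inside that interval. Within 1000 kb lay 61, or 43.3% (95% interval 34.9 to 51.9%), compared with 63.5%. The spread over chromosomes enters these shares.

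On chromosome 15 broad peaks made up a larger part of the knockout-only peaks than on chromosomes 1 and 13, while the interval overlapped that of chromosome 16. Its 165 members were 22.1% of its knockout-only peaks (95% interval 19.1 to 25.2%). The corresponding shares were 14.1% on chromosome 1 (95% interval 12.4 to 15.98%), 12.8% on chromosome 13 and 16.9% on chromosome 16 (95% interval 14.3 to 19.8%). Knockout peaks of chromosome 15 were also wide as a whole, with the highest median of the 20 chromosomes, 2068 bp against 1881 bp for the list. On chromosomes 1, 13 and 16 that median was 1788, 1776 and 1838 bp. How far this general width enters the share of broad peaks was not tested. Of all members 11.97% lay on chromosome 15, compared with 5.62% of the narrower knockout-only peaks and 6.51% of shared broad peaks. The share of chromosome 15 was 8.61% among members under 2250 bp (95% interval 6.55 to 11.1%) and 19.2% among those from 3000 to under 4000 bp (95% interval 12.8 to 27.1%). Median member width ran from 2123 bp on the X to 2386 bp on chromosome 15.

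The spread over chromosomes went with the difference in width between the genotypes at peaks present in both. In a matched pair, the knockout peak and the wild-type peak overlap each other and no further peak, and there were 28979 such pairs. Over the 20 chromosomes, the median width of the knockout peak minus that of its wild-type partner went with the members' share of broad knockout peaks, with r = 0.916 (Pearson) and rho = 0.910 (Spearman). With the number of knockout peaks per wild-type peak on the chromosome, r was 0.923 and rho 0.908. The knockout peaks in that ratio include the members and the other knockout-only peaks, so this relation is in part built in. The points share the same 2 libraries and the same peak calls, and a general widening of peaks also lifts more of them past 2000 bp, so these are descriptions without a p-value. When the minimum was set at the same rank within each chromosome's own knockout list, the number of peaks was 1445 and 41.6% of them lay on chromosomes 1, 13 and 16. This rank lowers the minimum width where knockout peaks are narrower as a whole, as on chromosomes 1, 13 and 16, with medians of 1788, 1776 and 1838 bp against 1881 bp for the list. It does not take away the difference in width between the genotypes, and the part of that difference in the spread was not tested.

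**Figure D3:**
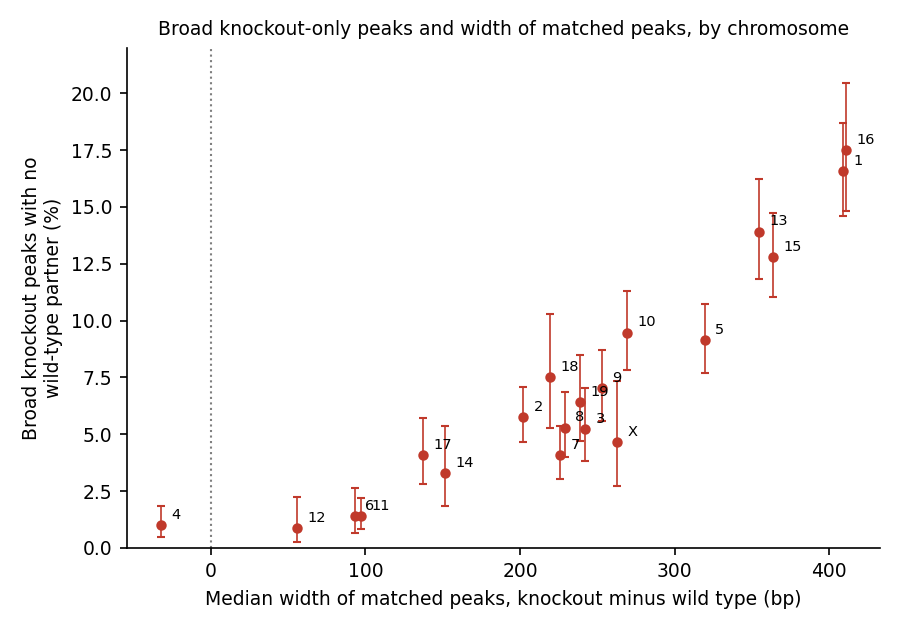
Each point is a chromosome, labelled by its name. The x axis gives the median width of matched peaks, knockout minus wild type (bp), and the y axis the percent of broad knockout peaks with no wild-type partner, with exact 95% intervals. Chromosome 4, at -32 bp, and chromosome 12, at 56 bp, lie lowest, and chromosomes 1 and 16, at 409 and 410.5 bp, lie highest.

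Within the chromosomes rich in members, these were not limited to single stretches. In bins of 20 Mb with at least 20 broad knockout peaks, the members' share ran from 10.4 to 22.5% over 9 bins of chromosome 1, from 11.1 to 18.4% over 6 bins of chromosome 13 and from 9.32 to 20.7% over 6 bins of chromosome 15. Chromosome 16 was less even, with 3.85 to 25.9% over its 5 bins. On chromosome 4 the share lay between 0 and 4.69% over 8 bins, and on chromosome 12 between 0 and 4% over 6 bins. All 10 bins of chromosome 1 held at least 1 member, compared with 3 of the 7 bins of chromosome 12.

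Most broad knockout-only peaks lay in the neighbourhood of wild-type H2A.Z sites, as did knockout peaks as a whole. The median gap between the edges of a member and the nearest wild-type peak was 8.56 kb (95% interval 7.70 to 9.36 kb), with quartiles of 2.79 and 22.4 kb. Within 1 kb lay 136 members (9.86%), within 5 kb 511 (37.1%) and within 50 kb 1225 (88.8%). At 100 kb or more were 62 members, or 4.50% (95% interval 3.46 to 5.73%). For all knockout peaks, measured to the nearest wild-type peak that does not overlap, these shares were 9.44, 35.6, 88.2 and 5.03%.

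The members' distances were much like those of broad peaks that had a partner. Shared broad knockout peaks lay a median of 8.74 kb (95% interval 8.52 to 9.02 kb) from the nearest further wild-type peak, and 9.23% of them had one within 1 kb. The interval for the members spans that value. Narrower knockout-only peaks were more remote, with a median of 10.5 kb (95% interval 10.1 to 10.99 kb) and 6.89% at 100 kb or more. Wider peaks reach further toward their neighbours by themselves. Measured from centre to centre, the medians were 10.6 kb for members and 12.2 kb for narrower knockout-only peaks. The edge-to-edge median was lower for members on 18 chromosomes and higher on chromosomes 6 and 8, which held 9 and 54 members. From centre to centre it was also higher for the 128 members of chromosome 16, at 14.6 kb against 13.8 kb.

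**Figure D4:**
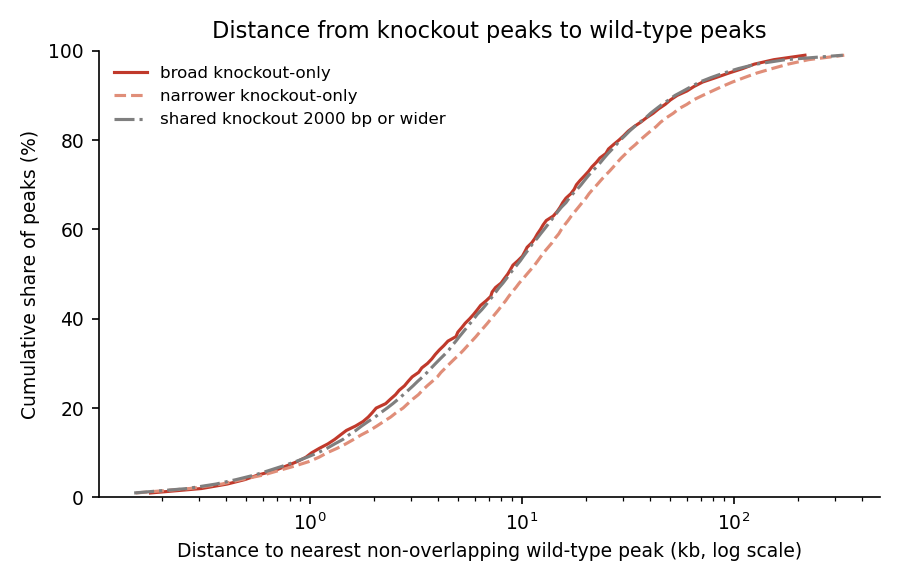
Cumulative share of knockout peaks (y axis, percent) by distance to the nearest wild-type peak that does not overlap them (x axis, kb, log scale), for broad knockout-only, narrower knockout-only and shared broad peaks. The curves of the broad knockout-only and shared broad peaks run close together, with medians of 8.56 and 8.74 kb, and that of the narrower knockout-only peaks lies to the right, at 10.5 kb.

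The nearest wild-type peak was mostly one that the knockout had too. For 157 members it was a peak found in the wild type alone, or 11.4% (95% interval 9.76 to 13.2%), compared with 15.6% for narrower knockout-only peaks. Wild-type-only peaks were 18.3% of the wild-type list. Members within 1 kb of a wild-type peak met a wild-type-only peak in 23 of 136 cases, or 16.9% (95% interval 11.03 to 24.3%). Within the same distance the share was 19.1% for narrower knockout-only peaks and 21.6% for all knockout peaks, and both values lie in the members' interval. At 5 kb or more the share was 10.5% for members and 16.3% for all knockout peaks.

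The 5 members nearest to a wild-type peak were separated from it by 53 to 70 bp. At chr8:93339454-93342527, a member of 3074 bp lay 53 bp from a wild-type-only peak of 967 bp. At chr10:98747794-98751509, a member of 3716 bp lay 54 bp from a wild-type-only peak of 903 bp. At chr11:72818160-72820782, the widest member of chromosome 11 at 2623 bp lay 70 bp from a wild-type-only peak of 1047 bp. The remaining 2, at chr1:135934519-135936914 and chr1:59370667-59372679, lay 56 and 58 bp from wild-type peaks that a separate knockout peak also covered.

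The most remote member stood alone in both lists. It was 2026 bp wide at chr5:60437430-60439455, 2288.3 kb from any wild-type peak and 2176.4 kb from any other knockout peak. The next were 2191 bp at chr5:51431544-51433734, 502.4 kb from a wild-type peak, and 2035 bp at chrX:134104324-134106358, 449 kb away. The fourth, 2007 bp at chr1:77841776-77843782, was 328 kb from a wild-type peak but only 0.096 kb from another knockout peak. The fifth was 2067 bp at chr8:32829835-32831901, 285.8 kb away. All 5 were at most 2191 bp wide, close to the minimum width.

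Around the members the knockout list held more peaks than the wild-type list. Within 50 kb of either edge, the members had a mean of 5.52 other knockout peaks and 4.06 wild-type peaks. The knockout peaks were the more numerous at 64.9% of members and the wild-type peaks at 12.8%. For shared broad peaks, leaving out the peak and its partner, the means were 4.76 and 4.31, and the shares 42.0 and 23.2%. For narrower knockout-only peaks the means were 4.40 and 3.42, and the shares 53.9 and 15.2%. Chromosomes 1, 13 and 16, rich in members, had 1.69, 1.44 and 1.59 knockout peaks per wild-type peak, and chromosome 15 1.16. How far such chromosome-wide surpluses enter the numbers around members was not tested. The nearest other knockout peak lay a median of 4.40 kb from a member, compared with 7.21 kb for shared broad peaks and 6.97 kb for narrower knockout-only peaks. It was within 1 kb for 265 members, or 19.2% (95% interval 17.2 to 21.4%), compared with 12.7% of shared broad peaks. At 143 of those 265 members, or 54.0%, that close neighbour was a shared peak. With a neighbour this close, the share was 61.65% for narrower knockout-only peaks and 72.8% for shared broad peaks.

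Knockout-only peaks followed one another along the chromosomes. Each member has a neighbour on either side in the knockout list, and a peak between members was counted once for each. Of these 2758 neighbours, 1138 were themselves knockout-only, or 41.3%. The share was 36.1% next to narrower knockout-only peaks and 24.9% next to shared broad peaks. A part of this goes with the uneven spread over chromosomes. If a peak's neighbours had its chromosome's own share of knockout-only peaks, 34.2% would be expected for members. For narrower knockout-only peaks the expected share was 31.75%, and for shared broad peaks 27.2%. The share was higher next to members than next to shared broad peaks on 19 chromosomes. The X was the exception, with 14.7% of 34 neighbours against 23.8%. On chromosome 1 the values were 52.3 and 45.3%, and on chromosome 4, which held 10 members, 25 and 10.3%. A further member took 192 of the 2758 neighbouring places, or 6.96%, where chromosome shares give 4.67%. Each adjacent pair of members enters these 192 places from both sides. Members took 4.56% of the places next to narrower knockout-only peaks, where chromosome shares give 3.93%.

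Joined when up to 50 kb apart, 397 members, or 28.8% (95% interval 26.4 to 31.3%), fell into 180 groups and 982 stood singly. By the same distance 68.2% of the 11759 knockout-only peaks of any width and 75.1% of the 17276 shared broad peaks were in groups, but those sets are larger and therefore denser, so the shares do not compare the tendency to group. There were 151 pairs, 24 groups of 3, 4 groups of 4 and a single group of 7. In 88 of the 180 groups no wild-type peak lay between the first and the last member. By chromosome, 49.2% of the members of chromosome 16 were grouped, 38.8% of those of chromosome 15 and 37.9% of those of chromosome 1. No group was found on chromosomes 6, 11 and 12, which held 9, 18 and 4 members. Of the 29 groups of at least 3 members, 11 lay on chromosome 16, 8 on chromosome 1 and 4 on chromosome 15. Chromosomes 15, 16 and 1 also had many members per 10 Mb (16.5, 13.5 and 11.3), and no number expected by chance was computed.

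The group of 7 lay at chr15:99369324-99439040 and was 69.7 kb long. Its members were 3265, 2850, 2800, 2291, 2376, 2542 and 2641 bp wide from lower to higher coordinates and lay 0.481 to 7.79 kb from the nearest wild-type peak. The knockout had 13 peaks in this stretch, of which 9 were knockout-only and 4 shared. The wild type had 4 peaks there, each with a knockout partner. The members lay between and beside sites present in both genotypes.

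**Figure D5:**
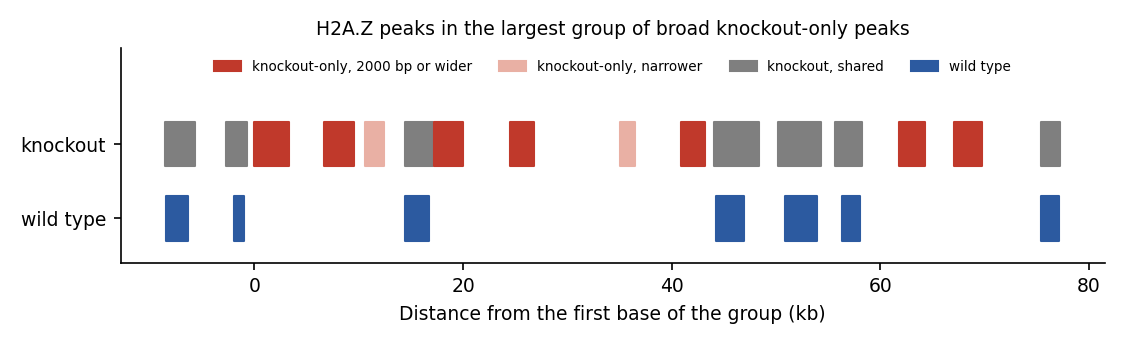
Peaks of the knockout list (upper row) and the wild-type list (lower row) in the group of 7 broad knockout-only peaks on chromosome 15, by distance from its first base (x axis, kb). Red bars are the 7 members, pale bars narrower knockout-only peaks, grey bars shared knockout peaks and blue bars wild-type peaks; the members lie between and beside shared sites over 69.7 kb.

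Groups of 4 differed in their surroundings. At chr1:36667748-36738670, members of 2176, 4406, 2824 and 2493 bp lay among 10 knockout peaks, 7 of them knockout-only, and 4 wild-type peaks, 1 of them wild-type-only. At chr16:93368190-93424416, members of 2589, 3148, 2099 and 2233 bp were the only peaks of either list over 56.2 kb, with the nearest wild-type peak 18.1 to 53.65 kb from each. The other two, at chr16:97905392-97960565 and chr17:15344094-15437574, were placed after these only by position. The former held 6 knockout peaks, all knockout-only, and no wild-type peak.

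The shared sites nearest to the members were also wider in the knockout. For each member the nearest matched pair of peaks was taken, at any distance. The choice of members did not use this measure, though it comes from the same libraries. The median gap to that pair was 10.3 kb for members, 12.97 kb for narrower knockout-only peaks and 10.9 kb for shared broad peaks. The median of the differences within pairs, knockout minus wild type, was 366 bp (95% interval 340 to 393 bp). The median widths in these pairs were 2205 bp (knockout) and 1659 bp (wild type). The knockout peak was the wider one at 90.4% of members and in 79.7% of all matched pairs. The share was 86.0% for narrower knockout-only peaks and 81.75% for shared broad peaks. Beside narrower knockout-only peaks the median was 297 bp (95% interval 290 to 304 bp), beside shared broad peaks 236 bp (95% interval 231 to 242 bp), and over all matched pairs 215 bp (95% interval 210 to 219 bp). Members can share a nearest pair, which these intervals ignore.

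A part of the members' excess over all matched pairs went with the chromosome. A chromosome's median also holds the general difference between the lists, which was 215 bp over all matched pairs. With the median of its own chromosome taken off, the median beside members was 67.5 bp (95% interval 53 to 89 bp), beside narrower knockout-only peaks 27 bp (95% interval 18 to 35 bp) and beside shared broad peaks 13 bp (95% interval 8 to 19 bp). The median beside members exceeded that of all pairs of the chromosome on 17 of 20 chromosomes. The exceptions were chromosomes 6, 11 and 12, with 9, 18 and 4 members. On chromosome 15 it was 487 bp, against 363.5 bp for all its pairs, and on chromosome 17 it was 279.5 bp, against 137 bp. On chromosome 4 it was 48 bp, where all pairs gave -32 bp.

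The widest members were spread over 10 chromosomes, with more on chromosome 15 than on any other. Of the 20 widest, 4180 to 5038 bp, 5 lay on chromosome 15, 3 on chromosome 9, and 2 each on chromosomes 1, 2, 13 and 16. Of these 20, 10 lay within 5 kb of a wild-type peak and 7 at 20 kb or more. At 19 of them the nearest wild-type peak had a knockout partner.

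The widest of all, 5038 bp at chr2:162797724-162802761, was 2.25 kb from another knockout peak and had 7 other knockout and 5 wild-type peaks within 50 kb. The second, 4980 bp at chr16:44493234-44498213, stood in a sparser stretch, with 4 knockout and 1 wild-type peak within 50 kb and 40.7 kb to the latter. The third, 4823 bp at chr12:20235616-20240438, was on the chromosome with the fewest members. It had 1 other knockout peak and 1 wild-type peak within 50 kb, at 32.2 and 32.05 kb.

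The fourth to sixth were all on chromosome 15, in stretches dense with H2A.Z in both genotypes. They were 4819 bp at chr15:100486301-100491119, 4801 bp at chr15:78298258-78303058 and 4606 bp at chr15:75953461-75958066. Within 50 kb they had 14, 12 and 10 other knockout peaks and 10, 10 and 12 wild-type peaks. The seventh, 4605 bp at chr9:96687653-96692257, lay 0.531 kb from a wild-type peak, with 12 knockout and 14 wild-type peaks within 50 kb.

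The eighth, 4543 bp at chr8:90267674-90272216, was the only one of the 20 whose nearest wild-type peak, 23.5 kb away, was wild-type-only. The ninth, 4468 bp at chr16:97935713-97940180, belonged to a group of 4 members and had 7 knockout peaks and 1 wild-type peak within 50 kb. The tenth, 4457 bp at chr7:20276680-20281136, lay 1.84 kb from a wild-type peak.

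From the eleventh to the fifteenth, the widths ran from 4434 to 4347 bp. They lay at chr9:43076828-43081261, chr5:3666477-3670885, chr1:36689959-36694364, chr1:194609901-194614296 and chr2:90925346-90929692. Distances to the nearest wild-type peak were 4.06, 17.7, 3.92, 3.11 and 0.111 kb. The pair on chromosome 1 showed the largest surplus of knockout peaks of these 5, with 15 and 12 other knockout peaks against 8 and 8 wild-type peaks within 50 kb.

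The last 5 of the 20 were 4304 to 4180 bp wide. The sixteenth, at chr13:40744260-40748563, had 6 other knockout peaks and no wild-type peak within 50 kb. The others lay at chr9:14872327-14876602, chr13:98445473-98449666, chr15:82867300-82871488 and chr15:79833315-79837494, at 20.9, 1.91, 0.280 and 2.26 kb from a wild-type peak. The last 2, on chromosome 15, had more wild-type than knockout peaks around them, 16 against 15 and 14 against 12.

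On the chromosomes with no member among the 20 widest, the widest member ranged from 2600 to 3980 bp. Chromosome 4 had one of 3980 bp at chr4:104606788-104610767, 19.95 kb from a wild-type peak. Chromosome 10 had one of 3848 bp at chr10:41741228-41745075 and chromosome 19 one of 3729 bp at chr19:47564821-47568549. On chromosomes 3, 6, 14 and 17 the widest were 2997 bp at chr3:121191937-121194933, 2961 bp at chr6:48490116-48493076, 2921 bp at chr14:66293962-66296882 and 2905 bp at chr17:14056336-14059240. That of chromosome 17 was remote, with no peak of either list within 50 kb and 157.1 kb to the nearest wild-type peak. The widest on the X was 2600 bp at chrX:163057979-163060578, and on chromosome 18 it was 3916 bp wide and 8.31 kb from a wild-type peak.

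Among the members themselves, the median distance was lower in the widest classes, with intervals that overlapped those of the narrower classes. The median gap to the nearest wild-type peak was 8.73 kb for the 639 members under 2250 bp and 6.87 kb (95% interval 5.22 to 10.5 kb) for the 130 from 3000 to under 4000 bp. It was 4.06 kb for the 27 of at least 4000 bp, with an interval of 1.91 to 21.5 kb that includes the other medians. The share of members within 1 kb of a wild-type peak was 8.61% in the narrowest class (95% interval 6.55 to 11.1%) and 22.2% in the widest (95% interval 8.62 to 42.3%). The share on chromosomes 1, 13 and 16 was 31.6% in the narrowest class (95% interval 28.0 to 35.4%) and between 36.9 and 39.2% in the wider ones.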

How the data were processed

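The 2 H2A.Z peak lists are Galaxy tracks, per the file headers. The submitters' processing notes name mm9 as the build and, as tools, HOMER, MACS (version 1.4.2), Bowtie (0.12.8) and CASAVA (1.8.2). The sources used here do not give what each did, the peak threshold or the role of the 2 input libraries. The deposited lists give chromosome, start and end, so depth and signal are unknown. The labels give 1 H2A.Z library per genotype. Reads were single-end, 50 bases.

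Overlap was at least 1 bp, distances run between nearest edges, and width is end minus start as in the lists. Starts were read as 0-based and raised by 1 for print, so a printed region spans end minus start plus 1. Shares and ratios of numbers have exact Clopper-Pearson 95% intervals, and medians have exact binomial intervals from order statistics. Python 3.11.15 with numpy 2.4.6, pandas 2.3.3, scipy 1.17.1 and matplotlib 3.10.9 was used. The overlap, distance and pairing code was tested on simulated data. The members and comparisons were chosen with earlier results of these data known. The regions named are the 20 widest members, the 5 nearest to and the 5 farthest from a wild-type peak, the 3 largest groups, the widest on each chromosome and those beside the width threshold. Gene names, promoter shares, marker lists and sequences were not used here, because the tables at hand are on GRCm38. Alternatives covered the overlap rule, minimum width, joining of peaks, autosomes, centre distance and group distance. The inputs were not analysed here.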

Additional observations from a re-analysis of the deposited data

How the results depend on the processing

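The knockout excess of broad one-genotype peaks kept its direction under each of the alternatives run, and of 54 alternative values 22 stayed within the interval, or within 1.5 times for numbers of peaks, while 32 did not. Unless a rule by its construction adds or removes peaks, the cause was not tested. When 50% of both peaks had to overlap there were 2633 broad knockout-only peaks, 14.1% of broad peaks, with a median distance of 0.546 kb (0 where bases were shared), a factor of 5.92 over the wild type and 31.9% on chromosomes 1, 13 and 16. With centres within 250 bp the values were 5369, 28.8%, 0 kb, 2.16 and 22.9%. A gap of up to 1 kb gave 10.3 kb and 6.66%. A minimum width of 1500 bp gave 4868 peaks, a factor of 5.82, 16.3% of broad peaks, 32.4% on chromosomes 1, 13 and 16 and 52.8% in groups. At 2500 bp these were 429, 12.3 and 4.12%, with 14.7% in groups, and at 3000 bp 157 and 2.999%, with a distance of 6.71 kb. Joining peaks within 500 bp gave a factor of 7.35, and centre distances a median of 10.6 kb. Joining distances of 20, 100 and 200 kb put 16.5, 40.2 and 56.2% of members in groups. Added after seeing the data were the wild-type minimum at equal rank (4.204), a minimum ranked within chromosomes (41.6% on chromosomes 1, 13 and 16) and the omission of chromosomes 1, 4, 12, 13, 15 and 16 (5.57% of broad peaks without a partner). Promoter alternatives were not run for lack of mm9 gene positions here. No paired analysis was possible because there is a single library of either genotype. How far depth limits the comparison is unknown.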
